A study of Mus musculus with 14 samples.

Results

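Tuft-like microvillar cells are rare chemosensory cells of the olfactory and respiratory linings. They were followed here through 8 genes, Trpm5, Plcb2, Gnat3, Pou2f3, Avil, Sh2d6, Chat and Il25, taken by symbol from the 51211 gene symbols of each of 2 normalized count tables. All 8 symbols were found in both tables. RNA had been measured by RNA-seq in the olfactory epithelium of 14 mice at postnatal day 5, in 2 experiments. The Kir2.1 experiment compared 3 mice carrying OMP-IRES-tTA together with tetO-Kir2.1-IRES-tauLacZ, called Kir2.1 mice here, with 3 control mice heterozygous for OMP-IRES-tTA alone, so that every mouse of this experiment carried the tTA allele. The transgene is driven from the Omp locus, which is active in mature olfactory sensory neurons (OSNs), and makes the potassium channel Kir2.1, which silences them. The records title these mice Kir2.1-Off, a name that the study uses for mice whose channel was switched off with doxycycline, and no doxycycline is recorded for them. The PEA experiment compared 4 wild type mice exposed continuously to the odor 2-phenylethylamine (PEA) from day 0 to day 5 with 4 unexposed wild type mice. The records give C57BL/6 as the strain of all mice, while the methods of the study name CD-1 for pups exposed to PEA. The tissue was whole epithelium, so a lower or higher value of a gene cannot be told apart as fewer or more cells of a type or as less or more RNA in each cell.

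Tuft cells, microvillar cells of the nose and taste cells that sense sweet, bitter and umami share a signalling cascade. A receptor activates a G protein, Gnat3 encoding the taste G protein gustducin, then the phospholipase Plcb2, which releases calcium through the receptor Itpr3, and the cation channel Trpm5 opens and depolarizes the cell. Pou2f3 is the POU-domain transcription factor these cells need in order to form. Avil encodes advillin, an actin-binding protein of the tuft cell's apical bundle that sensory neurons also make, and Sh2d6 encodes an adaptor protein with an SH2 domain. Chat makes acetylcholine, with which the microvillar cells of the olfactory epithelium are known to act on their neighbours, and Il25 encodes interleukin 25, the cytokine by which tuft cells of the gut start type 2 immune responses. Trpm5 is also known from some OSNs, and Plcb2 from leukocytes, so neither gene marks only these cells. A second kind of microvillar cell in the olfactory epithelium resembles ionocytes and carries Foxi1, Ascl3 and Cftr.

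Since Pou2f3 binds the octamer ATGCAAAT, the 250 bases before the start given in the RefSeq promoter table (GRCm38.p6) were searched for it on both strands. Sequences were found for 6 of the 8 genes, all but Pou2f3 and Il25. The RefSeq starts differ in part from the gene spans given below. For Sh2d6 the window searched lies wholly inside that span, and for Chat and Gnat3 it reaches into the span. None of the 6 held the octamer, which 1.6% of 32851 promoters of this length held. Its first 7 letters, ATGCAAA, were found on either strand in 4.12% of all promoters and in 1 of the 6, that of Avil. The Avil sequence is shown because it held this motif in both orientations, and the Trpm5 sequence because Trpm5 is the best known marker of these cells and held neither motif. Capitals mark the 2 matches in Avil, which begin 115 and 15 bases before the start. The Avil sequence is the plus strand of chr10:127000459-127000708 and the Trpm5 sequence the minus strand of chr7:143094643-143094892.
Avil: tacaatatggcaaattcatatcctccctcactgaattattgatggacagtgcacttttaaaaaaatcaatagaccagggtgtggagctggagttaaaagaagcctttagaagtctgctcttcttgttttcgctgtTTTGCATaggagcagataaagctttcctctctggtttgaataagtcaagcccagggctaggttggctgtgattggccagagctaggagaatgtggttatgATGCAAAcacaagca
Trpm5: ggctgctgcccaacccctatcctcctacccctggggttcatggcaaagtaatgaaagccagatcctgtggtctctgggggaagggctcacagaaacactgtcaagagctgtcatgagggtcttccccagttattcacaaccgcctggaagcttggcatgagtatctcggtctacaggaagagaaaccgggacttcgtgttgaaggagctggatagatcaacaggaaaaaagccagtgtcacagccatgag
A match says only that these letters are there, and the overlapping 8-letter and 7-letter motifs are not separate counts. Among 30 other genes known from tuft cells that had a promoter sequence, 4 held the 7-letter motif, Hpgds, Nradd, Runx1 and Sucnr1, and 3 of these held the whole octamer.

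All 8 genes were low in this tissue, as their level per kilobase of annotated exon shows in both experiments. In the Kir2.1 experiment Pou2f3 stood first with 68.3 ± 9.14 normalized counts per kb (SD over 6 mice), followed by Trpm5 at 39.4 ± 6.29, Avil at 35.5 ± 13.3 and Sh2d6 at 30.5 ± 5.52. Plcb2 (5.00 ± 1.52), Gnat3 (4.72 ± 3.70), Il25 (3.92 ± 2.66) and Chat (0.465 ± 0.263) were lower. Neighbours in this order whose ranges over the 6 mice did not overlap were Pou2f3 and Trpm5, Sh2d6 and Plcb2, and Il25 and Chat. Trpm5 and Avil kept their order in only 3 of 6 mice, and Plcb2, Gnat3 and Il25 overlapped. The transcription factor was thus the member with the highest level per kb here and Chat the lowest. In the 3 control mice alone Gnat3 (2.51 ± 1.26) stood below Il25 (3.40 ± 1.92). The place of Pou2f3 above Trpm5 rests on the length used, all annotated exons joined, 3.088 kb against 6.398 kb. In normalized counts Trpm5 had the higher mean, 238 in controls and 267 in Kir2.1 mice against 210 and 212 for Pou2f3.

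In the PEA experiment the first 4 genes stood in the same order, with Pou2f3 at 11.8 ± 4.13, Trpm5 at 8.81 ± 3.08, Avil at 8.45 ± 2.42 and Sh2d6 at 4.75 ± 2.41 normalized counts per kb (SD over 8 mice). Gnat3 at 4.70 ± 2.80 stood above Plcb2 at 2.38 ± 0.708, and Chat (0.285 ± 0.321) and Il25 came last. Only Plcb2 and Chat, among neighbours in this order, had ranges that did not overlap. The 2 tables were normalized separately and their libraries were made differently, so levels are not compared between them. For scale, Foxi1, the transcription factor that defines the ionocyte-type microvillar cell, reached 633 ± 41.9 per kb in the first table and 66.7 ± 7.01 in the second, and Omp, the marker of mature OSNs, 12908 ± 3012 and 3563 ± 564. Pou2f3 lay at the 37.7th percentile of the levels per kb of all genes tested in the Kir2.1 experiment and at the 17.9th in the PEA experiment.

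**Figure D1:**
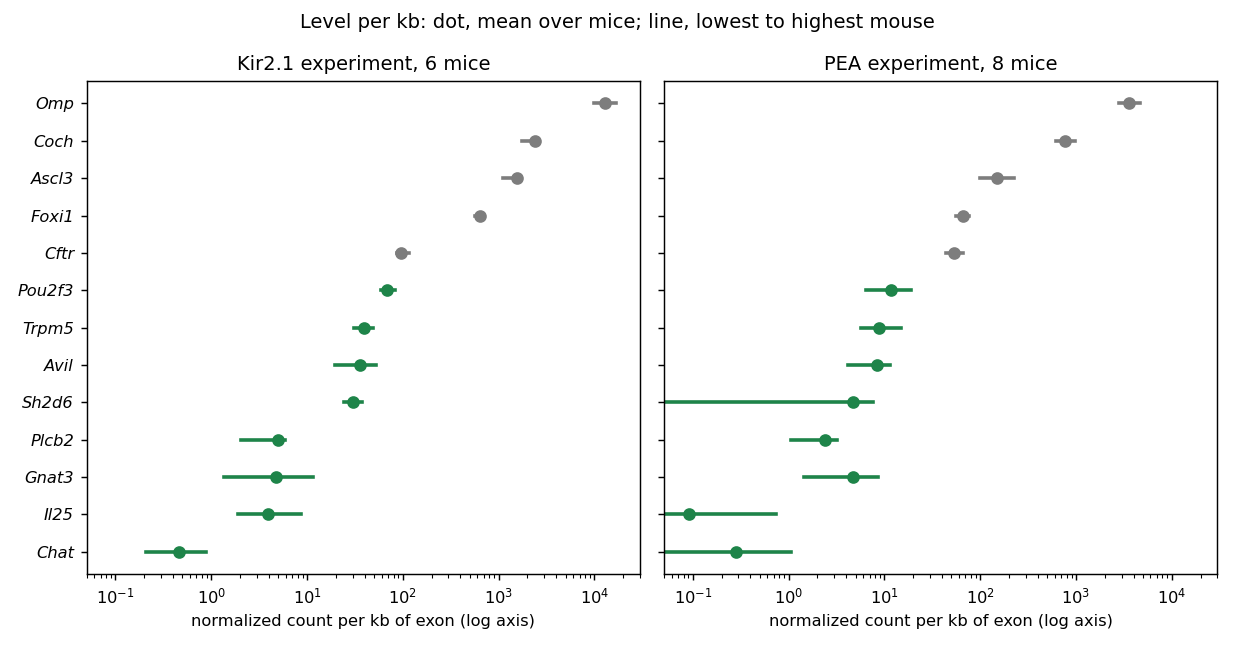
Normalized counts per kb of annotated exon on a log axis, for the 8 genes (green) and 5 genes of other cells (grey), in the 6 mice of the Kir2.1 experiment and the 8 of the PEA experiment; a dot is the mean over mice and a line runs from the lowest to the highest mouse, with a line that meets the left edge reaching a value listed at 0. Every green dot lies to the left of every grey one, with Pou2f3, Trpm5 and Avil at the right end of the green group.

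The Kir2.1 experiment asks what silencing of the mature OSNs leaves in the tissue. No member differed between Kir2.1 and control mice at an adjusted p under 0.05 (limma with Benjamini-Hochberg adjustment over all genes tested), in an experiment in which 70 of 19807 genes, 0.353%, did so in either direction. Of the 8 genes, 5 averaged 10 normalized counts or more and were tested, and none of these 5 reached an unadjusted p under 0.05 (2205 of the 19807 did in either direction, 4.93% of all with the higher value in Kir2.1 mice). Their median log2 difference was 0.28, beside 0.01 for all genes tested, with 4 of the 5 estimates above 0. All log2 differences in this text are group means of log2(normalized count + 1), treated minus control, a scale that understates changes of low genes.

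Trpm5, the channel at the end of the cascade, measured 224, 311 and 265 normalized counts in Kir2.1 mice 1 to 3 and 196, 274 and 243 in control mice 1 to 3. The groups overlapped almost completely, with the lowest value in a control and the highest in a Kir2.1 mouse. The log2 difference was 0.16 (SE 0.18, 95% interval -0.25 to 0.58), with an adjusted p of 0.816 by limma. Trpm5 (GRCm38 chromosome 7, 143069153 to 143094642, minus strand) shares 220 of its 6398 exon bases with Tssc4 on the opposite strand. Tssc4, at 1540 ± 33.3 in controls and 1545 ± 83.2 in Kir2.1 mice (SD, n = 3 each), showed a log2 difference of 0.00 (SE 0.07). Reads of the shared bases cannot be told apart in these unstranded libraries.

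Plcb2, the phospholipase (chromosome 2, 118707517 to 118728438), was at 38.1, 38.0 and 38.8 in the Kir2.1 mice and at 31.3, 13.4 and 38.4 in the controls. The Kir2.1 mice were alike, and control 2 was the single low mouse. The log2 difference of 0.58 had an SE of 0.40 and a 95% interval of -0.37 to 1.52, and was 0.14 without control 2. Gnat3, gustducin (chromosome 5, 17962549 to 18019834), was too low for the test, with 15.9, 4.81 and 7.61 in the Kir2.1 mice and 3.14, 1.86 and 5.26 in the controls. The Kir2.1 mean was 2.76 times the control mean, but Kir2.1 mouse 2 fell below control 3. The exact two-sided permutation p was 0.20, where 0.10 is the smallest that 3 mice against 3 allow.

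Pou2f3 (chromosome 9, 43123939 to 43210369) was the member that moved least. It measured 183, 258 and 193 in the Kir2.1 mice and 223, 219 and 190 in the controls, and both the lowest and the highest value were from Kir2.1 mice. This gave a log2 difference of -0.01 (SE 0.17), with an interval of -0.40 to 0.39.

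Avil (chromosome 10, 127000709 to 127020994) had the largest estimate of the 5 genes tested. Its values were 149, 177 and 112 in the Kir2.1 mice and 66.9, 70.7 and 148 in the controls. Controls 1 and 2 lay below all Kir2.1 mice, while control 3 lay among them. Its log2 difference of 0.69 (SE 0.34, 95% interval -0.10 to 1.48) had an adjusted p of 0.525 by limma, and the exact two-sided permutation p was 0.20. Without control 3 it was 1.05. Avil shares 165 of its 3398 exon bases with Tsfm on the opposite strand, whose log2 difference was -0.04 (SE 0.08). Sh2d6 (chromosome 6, 72513641 to 72521707) measured 64.1, 61.6 and 45.2 in the Kir2.1 mice and 46.4, 41.1 and 51.4 in the controls, a log2 difference of 0.28 (SE 0.23) that was 0.44 without Kir2.1 mouse 3. Kir2.1 mice 1 and 2 were above every control, and Kir2.1 mouse 3 lay within the control range.

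Chat (chromosome 14, 32408203 to 32465989) and Il25 (chromosome 14, 54932695 to 54935837) were near the limit of detection. Chat was at 4.17, 2.02 and 3.06 in the Kir2.1 mice and 1.00, 1.91 and 0.976 in the controls. The groups did not overlap, as was the case with the higher values in Kir2.1 mice for 3.54% of the 15514 genes with a mean above 0 and under 10, and for 7.26% of the genes tested. The commonest low value was close to 1 in each mouse, so that these values stand for only a few reads each. The exact two-sided p of Chat was 0.10, the smallest possible. Il25 was at 2.91, 2.1 and 9.16 in the Kir2.1 mice and 2.00, 5.92 and 2.92 in the controls, overlapping throughout.

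**Figure D2:**
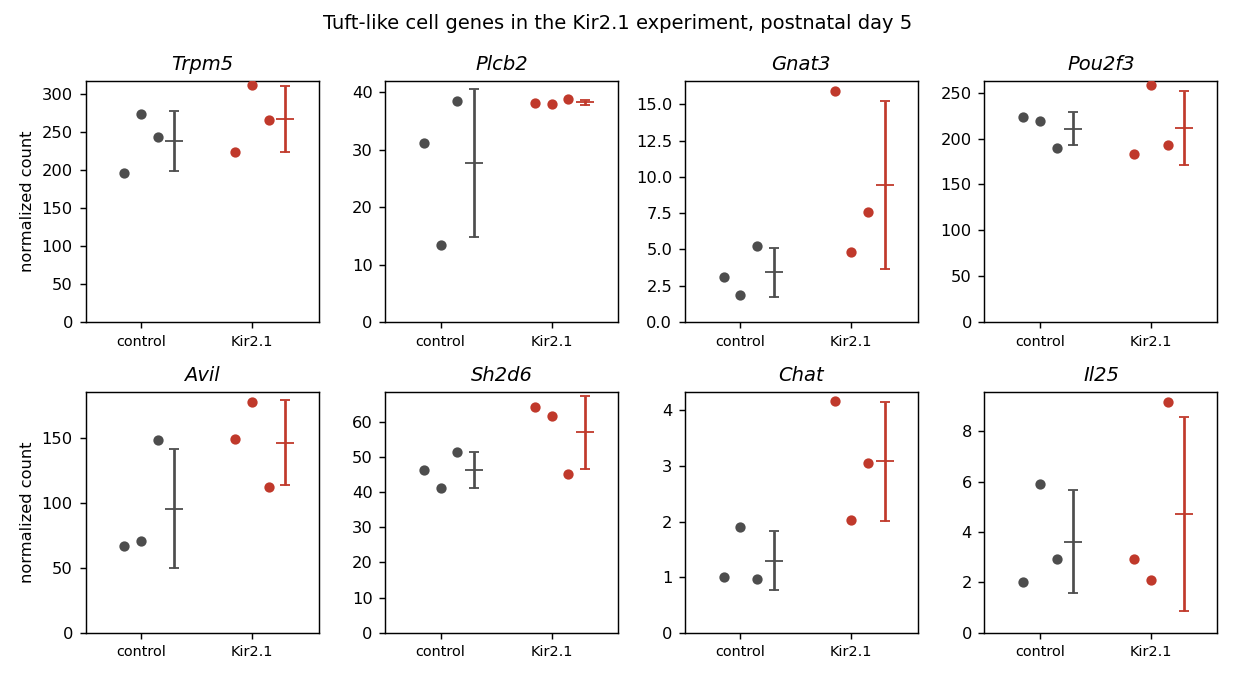
Normalized counts of the 8 genes in each of the 3 control (grey) and 3 Kir2.1 (red) mice at postnatal day 5; points are mice and bars the mean ± SD. Only for Chat, between 0.976 and 4.17, do the groups not overlap, and in Avil a single control, at 148, lies among the Kir2.1 mice.

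Kcnj2, which encodes Kir2.1, lay between 986 and 1274 in the controls, whereas the Kir2.1 mice had 17926 to 24193. Omp was lower in the Kir2.1 mice (log2 difference -0.60, SE 0.08, adjusted p = 0.0466 by limma), and all 12 genes of a list of mature OSN markers had a lower value there at an unadjusted p under 0.05. Their median log2 difference was -0.41. Over all 19807 genes tested, 2205 passed the unadjusted threshold in either direction, 976 of them with the higher value in Kir2.1 mice. Of the 12, Omp and Slc17a6, the vesicular glutamate transporter, passed the adjusted threshold. With single mice left out the adjusted p of Omp was 0.0704 to 0.175, and that of Slc17a6 0.0337 to 0.0571. Both calls were lost with the replicate block (adjusted p 0.0799 for Omp and 0.0786 for Slc17a6 by limma), without a trend (0.148 and 0.0705) and with a vomeronasal covariate (0.146 and 0.0582), and that of Omp also with no filter (0.0525) and a pseudocount of 5 (0.0531). The part of these OSN genes in the values of the 8 genes was not tested. Vomeronasal receptor genes averaged 6.06 on the log2 scale in control 1 and 2.35 to 2.45 in the other 5 mice. Without control 1 the log2 differences were 0.03 for Trpm5, 0.04 for Pou2f3, 0.49 for Avil, 0.72 for Plcb2 and 0.29 for Sh2d6.

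The wider tuft cell programme was read from 36 other genes known from tuft cells of several epithelia. Krt18, Dclk1 and Gprc5c, the most abundant of them, were at 19063, 5384 and 4400 normalized counts in controls, against 238 for Trpm5. Which cells the RNA of these 36 genes came from was not tested, so they need not follow tuft cells in this tissue. Of the 35 tested in the Kir2.1 experiment, 1 rose at an adjusted p under 0.05 and none fell. This was Rgs2, a regulator of G protein signalling, at 688 ± 7.64 in controls and 1161 ± 110 in Kir2.1 mice (SD, n = 3 each; log2 difference 0.75, SE 0.09, adjusted p = 0.0325 by limma). Rgs2 is used by many cells besides tuft cells. Its adjusted p was 0.0368 to 0.163 with single mice left out, and passed only without Kir2.1 mouse 3. Estimates were above 0 for 29 of the 35 genes, with a median of 0.21. At an unadjusted p under 0.05, 8 of the 35 were higher in Kir2.1 mice, as were 4.93% of all genes tested, and none was lower. For 10 of the 35 the Kir2.1 mice all lay above the controls, as they did for 7.26% of all genes tested.

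The 8 genes past the unadjusted threshold, which were chosen after their values were seen, included 2 enzymes of prostaglandin synthesis. Ptgs1, the cyclooxygenase of tuft cells, was 149 to 231 in controls and 249 to 370 in Kir2.1 mice, and Hpgds, the prostaglandin D synthase, 73.9 to 110 and 129 to 214. Spib, a transcription factor, was 36.1 to 63.6 and 74.9 to 95.9, and Sh2d7, the adaptor related to Sh2d6, 71.6 to 88.5 and 101 to 161. The others were Bmx, Krt18, Nrgn and Rgs2. Apart from Rgs2, the lowest adjusted p among them was 0.188, that of Nrgn. The genes of this list with the highest levels besides Krt18 were Dclk1 and Gprc5c, whose log2 differences were -0.05 (SE 0.10) and -0.02 (SE 0.07). Spib, Ptgs1, Hpgds and Bmx are used by leukocytes too. In the same mice all 7 tested genes of a list of 12 leukocyte genes had estimates above 0, with a median of 0.30. Its most abundant genes, Lyz2, Csf1r and Tyrobp, had log2 differences of 0.33 (SE 0.21), 0.26 (SE 0.22) and 0.30 (SE 0.14). Ptprc, the pan-leukocyte phosphatase CD45, chosen after its values were seen, was 69.5 to 92.1 in controls and 104 to 152 in Kir2.1 mice. The summed leukocyte list was 3076 to 3156 in controls and 3333 to 4273 in Kir2.1 mice. Ly6g was listed at 0 in all 6 mice. The part of leukocytes in the tuft cell list was not tested.

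Other genes of the cascade and of its signals did not pass the adjusted threshold in the Kir2.1 experiment. Of 15 genes of the taste-type cascade, 10 were tested, 8 with estimates above 0, and the median was 0.17. Itpr3, the calcium release channel, went from 1404 ± 208 to 1751 ± 319 (SD, n = 3 each; log2 difference 0.31, SE 0.16), and Trpm4, the relative of Trpm5, from 1722 ± 76.5 to 1898 ± 171. Gng13, a G protein subunit that OSNs also use in quantity, was lower in every Kir2.1 mouse (log2 difference -0.37, SE 0.07, adjusted p = 0.102 by limma). Among 11 of 18 cholinergic genes tested the median was 0.01, with the choline carriers Slc44a1 and Slc44a4 at 0.01 (SE 0.08) and -0.01 (SE 0.12) and the nicotinic receptor subunit Chrnb2 at -0.27 (SE 0.11). Ache, which breaks acetylcholine down, was at -0.33 (SE 0.14). Slc18a3, which loads acetylcholine into vesicles, was at 0.963 or below in every mouse.

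Of 23 genes of type 2 responses, the type 2 list, 12 were tested and none passed the adjusted threshold, with a median of 0.16. The list holds receptors of interleukin 25 and of leukotrienes, but also other signals such as Il33 and Tslp and their receptors. Its most abundant genes, the alarmin Il33 and the receptor chains Il13ra1 and Il4ra, had log2 differences of -0.19 (SE 0.12), 0.17 (SE 0.09) and -0.02 (SE 0.12). The highest estimate of any list, 3.86 for the chitinase-like gene Chil4 that was singled out for this value, came with a range of 20.1 to 3800 within the Kir2.1 mice. Among the 12 genes of the ionocyte-type microvillar cell, 11 had estimates above 0, none passed even the unadjusted threshold, and the median was 0.14. Coch and the proton pump subunits Atp6v1b1 and Atp6v1c2, its most abundant genes, had log2 differences of 0.17 (SE 0.14), 0.02 (SE 0.07) and -0.04 (SE 0.21).

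The PEA experiment asks what continuous odor exposure in the first days does to the tissue. Again no member passed an adjusted p under 0.05, in an experiment with 31 such genes of 17322, 0.179%, in either direction. Of the 8 genes, 4 had a mean of at least 10, and all 4 had estimates above 0, with a median log2 difference of 0.60 beside -0.02 for all genes tested. Trpm5 and Avil were higher at an unadjusted limma p under 0.05, which 8.93% of all genes tested also were. The values of all 8 genes summed to 116, 137, 91.9 and 135 normalized counts in PEA control mice 1 to 4 and to 180, 202, 205 and 157 in PEA exposed mice 1 to 4. All exposed mice thus lay above all controls in this sum, which is given without a test since the genes were chosen with results known. The same held for the summed ionocyte-type list, at 4424 to 5357 in controls and 5711 to 6440 in exposed mice. The sums of all other gene lists overlapped between the groups. In the Kir2.1 experiment the sum of the 8 genes did overlap, at 570 to 680 in controls and 675 to 855 in Kir2.1 mice. Separate sums were found there for other lists, higher in Kir2.1 mice for the tuft cell and leukocyte lists. They were lower for the taste-type, mature OSN and vomeronasal lists.

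Trpm5 measured 48.9, 76.9, 95.3 and 53.7 in exposed mice 1 to 4 and 51.4, 46.3, 36.8 and 41.8 in control mice 1 to 4. Exposed mouse 1 fell below control 1, and the other 3 exposed mice lay above every control. In log2 units the difference was 0.59 (SE 0.24, 95% interval 0.06 to 1.12), with an adjusted p of 0.294 by limma. The exact two-sided permutation p was 0.0571, where 0.0286 is the smallest that 4 mice against 4 allow. Tssc4, which overlaps Trpm5 on the other strand, was 141 to 179 in controls and 171 to 265 in exposed mice (log2 difference 0.43, SE 0.17). These libraries were stranded, and the part of Tssc4 reads in the value of Trpm5 was not tested.

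Avil was the only member whose groups did not overlap in this experiment. It measured 34.5, 39.2, 35.7 and 30.6 in the exposed mice and 14.3, 22.7, 22.8 and 29.8 in the controls, with control 4 just below exposed mouse 4. The exposed mice lay above all controls in 5.46% of the genes tested. The log2 difference was 0.66 (SE 0.26, 95% interval 0.08 to 1.23), with an adjusted p of 0.277 by limma and an exact two-sided permutation p of 0.0286. Its neighbour Tsfm had a log2 difference of 0.06 (SE 0.13). Sh2d6, with a mean under 10, measured 7.07, 10.7, 12.2 and 7.17 in the exposed mice and 6.45, 12.9 and 7.71 in controls 1, 2 and 4, and was listed at 0 in control 3. Apart from that mouse the groups covered the same range, and the highest value was that of a control.

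Pou2f3 measured 58.0, 45.1, 31.5 and 40.4 in the exposed mice and 19.9, 35.6, 20.1 and 40.8 in the controls. Controls 1 and 3 were low, and controls 2 and 4 lay within the exposed range. The log2 difference of 0.61 had an SE of 0.30 and an interval of -0.06 to 1.28.

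Plcb2 measured 18.2, 19.9, 21 and 12.6 in the exposed mice and 17.2, 17.4, 7.07 and 12.2 in the controls, a log2 difference of 0.44 (SE 0.35) that was 0.18 without control 3, the lowest mouse. Gnat3 measured 11.8, 9.59, 4.75 and 10.7 in the exposed mice and 5.90, 2.50, 3.95 and 1.96 in the controls. Exposed mouse 3 lay within the control range and the other 3 exposed mice above it. The mean was 2.57 times that of the controls, and the exact two-sided permutation p was 0.0571.

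The genes of the released signals were nearly undetected. Chat was at 1.23, 0.985, 4.95 and 0.695 in the exposed mice and 1.08, 1.12 and 0.682 in controls 1, 3 and 4, and was listed at 0 in control 2. Exposed mouse 3 stood alone above the others. Il25 was listed at 0 in 7 of the 8 mice and at 0.785 in exposed mouse 4, so no fold change is given.

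**Figure D3:**
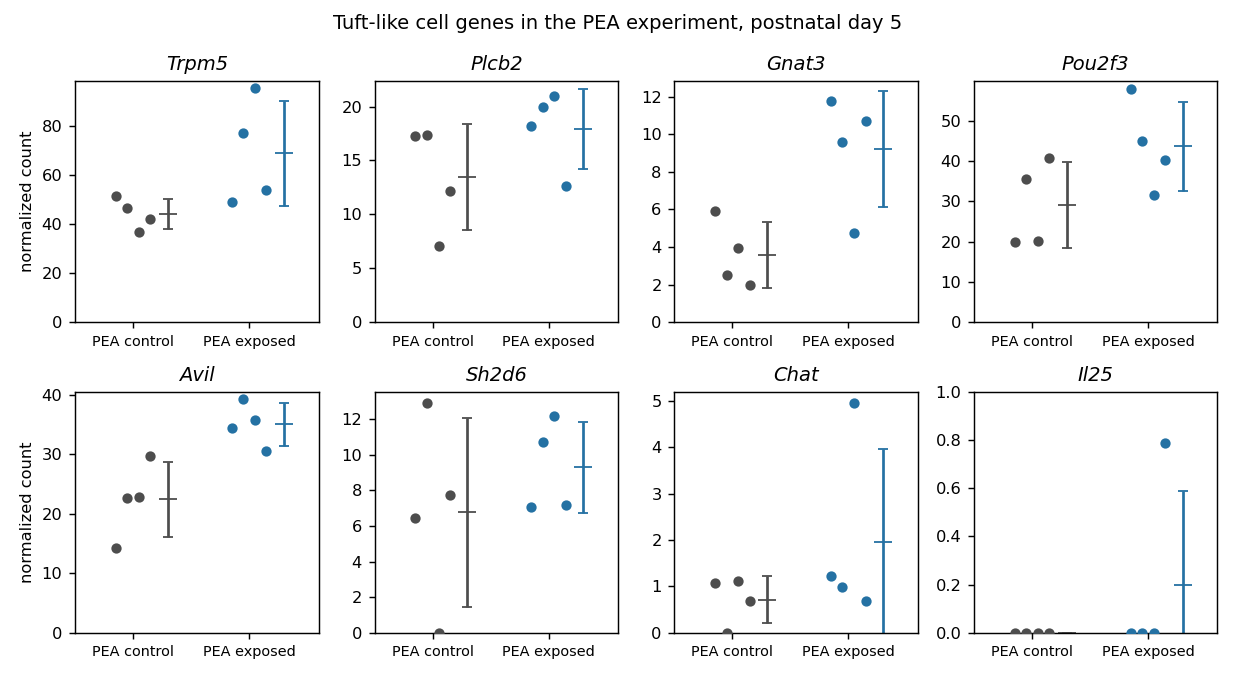
Normalized counts of the 8 genes in each of the 4 PEA control (grey) and 4 PEA exposed (blue) mice at postnatal day 5; points are mice and bars the mean ± SD. Avil is the gene in which all exposed mice, from 30.6 upwards, lie above all controls, and Il25 is listed at 0 in all mice but 1.

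Vomeronasal receptor genes, which belong to a neighbouring organ, averaged 5.77, 4.68 and 3.91 on the log2 scale in PEA controls 1, 2 and 3 and 1.38 in control 4. In the exposed mice they averaged 5.33 in mouse 1 and 1.66, 1.38 and 1.38 in mice 2, 3 and 4. More vomeronasal RNA was thus present in most control libraries than in most exposed ones. With this average as a covariate the log2 differences were 0.52 for Trpm5, 0.51 for Avil, 0.59 for Pou2f3 and 0.54 for Plcb2. Without the 4 mice in which it was above 3, an alternative chosen after the data were seen that leaves 1 control against 3 exposed mice, they were 0.80, 0.23, -0.08 and 0.48. In that comparison control 4, the highest control for Avil and Pou2f3, stands alone, and is assumed to vary like the exposed mice. Omp was 6087 to 7326 in controls and 7510 to 10082 in exposed mice (log2 difference 0.31, SE 0.11, adjusted p = 0.252 by limma), and the median of the 12 mature OSN genes was -0.06.

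**Figure D4:**
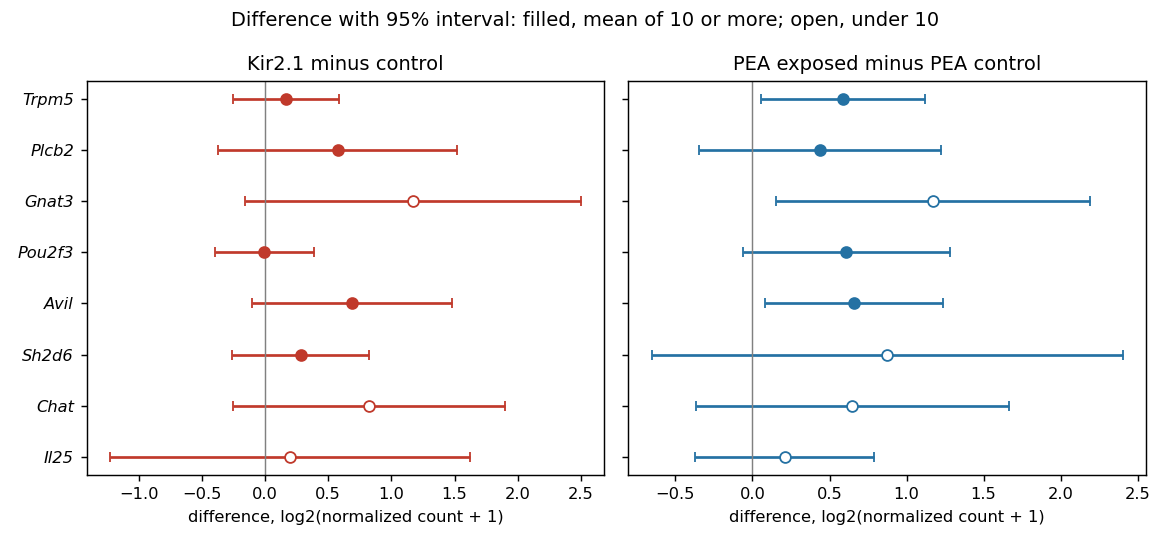
Difference between groups in log2(normalized count + 1) for the 8 genes, with 95% intervals from limma, in the Kir2.1 (red) and PEA (blue) experiments; filled points are genes with a mean of at least 10, open points genes under it, fitted without that filter. Pou2f3 lies at -0.01 in the Kir2.1 experiment, and the intervals of Trpm5, Avil and Gnat3 in the PEA experiment are those that leave out 0 before adjustment.

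Of the 15 taste-type genes, 8 were tested in the PEA experiment, the members Trpm5 and Plcb2 among them. All 8 had estimates above 0, with a median of 0.45, and none passed the adjusted threshold. Itpr3 went from 229 ± 24.0 to 487 ± 231 (SD, n = 4 each), a log2 difference of 0.96 (SE 0.29, adjusted p = 0.179 by limma), and all exposed mice lay above all controls. Itpr3 also belongs to the ionocyte-type cell. Trpm4 went from 191 ± 77.0 to 308 ± 31.3 (log2 difference 0.76, SE 0.25), and Gng13 from 1502 ± 494 to 1775 ± 434 (log2 difference 0.28, SE 0.28, and -0.01 without control 4).

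Of the 36 other tuft cell genes, 27 were tested under PEA. Of these, 19 had estimates above 0, the median was 0.12 and none passed the adjusted threshold. At an unadjusted p under 0.05, Alox5, Il17rb, Sh2d7 and Gprc5c were higher, as were 8.93% of all genes tested, and Rgs2 was lower, genes chosen after their values were seen except for Gprc5c and Rgs2. Alox5, the lipoxygenase that starts leukotriene synthesis, was 7.94 to 26.3 in controls and 19.0 to 68.5 in exposed mice. Il17rb, a chain of the interleukin 25 receptor that tuft cells carry themselves, was 16.6 to 23.1 and 23.6 to 43.5, without overlap. Gprc5c went from 770 ± 170 to 1140 ± 137 (log2 difference 0.58, SE 0.16). The estimates of Krt18 and Dclk1 were 0.15 (SE 0.21) and -0.17 (SE 0.15). Rgs2, higher in the Kir2.1 mice, had a log2 difference of -0.56 (SE 0.20, adjusted p = 0.237 by limma) in the exposed mice. Sh2d7, again singled out after its values were seen, was without overlap higher in the treated group of both experiments, at 16.1 to 31.2 in PEA controls and 32.1 to 45.1 in exposed mice. Ptgs1 and Hpgds, higher in every Kir2.1 mouse, overlapped between the PEA groups with estimates of -0.09 (SE 0.18) and -0.42 (SE 0.25).

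Cholinergic genes had a median log2 difference of -0.04 under PEA (10 of 18 tested), with Slc44a1 at -0.08 (SE 0.11), Slc44a4 at 0.22 (SE 0.18) and Chrnb2 at 0.05 (SE 0.14). Ache, the acetylcholinesterase that breaks acetylcholine down, was chosen after its values were seen. It measured 29.2 ± 6.50 in controls and 8.83 ± 3.93 in exposed mice (SD, n = 4 each). All exposed mice lay below all controls, and the share of all genes tested that separated in this direction was not counted. The log2 difference of Ache, -1.69 (SE 0.36), had an adjusted p of 0.103 by limma. Slc18a3 was listed at 0 in all 8 mice. The type 2 list had a median of 0.05 (11 of 23 tested), with Il33 at 0.05 (SE 0.12), Il13ra1 at -0.04 (SE 0.13) and Il4ra at -0.05 (SE 0.19), and Il13 and Il9 were listed at 0 in every mouse.

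The ionocyte-type microvillar cell, of which all 12 genes were tested, gave a median of 0.20 under PEA, with 9 estimates above 0. At an unadjusted limma p under 0.05, 4 of the 12 were higher, Ascl3, Coch, Moxd1 and Itpr3, and none was lower. Of all genes tested, 8.93% were higher at this threshold. Ascl3 and Moxd1 are named here after their values were seen. For 3 of the 12 all exposed mice lay above all controls, as they did for 5.46% of all genes tested. Coch went from 1939 ± 84.4 to 2620 ± 224 (SD, n = 4 each; log2 difference 0.43, SE 0.09, adjusted p = 0.0997 by limma), with all exposed mice above all controls. Atp6v1b1 and Atp6v1c2 had estimates of 0.15 (SE 0.09) and 0.07 (SE 0.16). The defining transcription factor Foxi1 was 132 to 182 in controls and 148 to 175 in exposed mice. The tested leukocyte genes had a median of 0.02, with a summed level of 1239 to 2415 in controls and 1440 to 1843 in exposed mice. Among markers of taste bud cells other than those of type II, Pkd2l1 was below the filter in both experiments, and the medians of the list were -0.35 in the Kir2.1 and -0.08 in the PEA experiment. The remaining lists had no gene past the adjusted threshold in either experiment, with medians, Kir2.1 before PEA, of 0.02 and -0.06 for immature OSNs, 0.00 and 0.03 for basal cells, -0.04 and 0.11 for sustentacular and gland cells, 0.19 and -0.07 for ciliated cells and -1.33 and -1.05 for vomeronasal neurons.

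**Figure D5:**
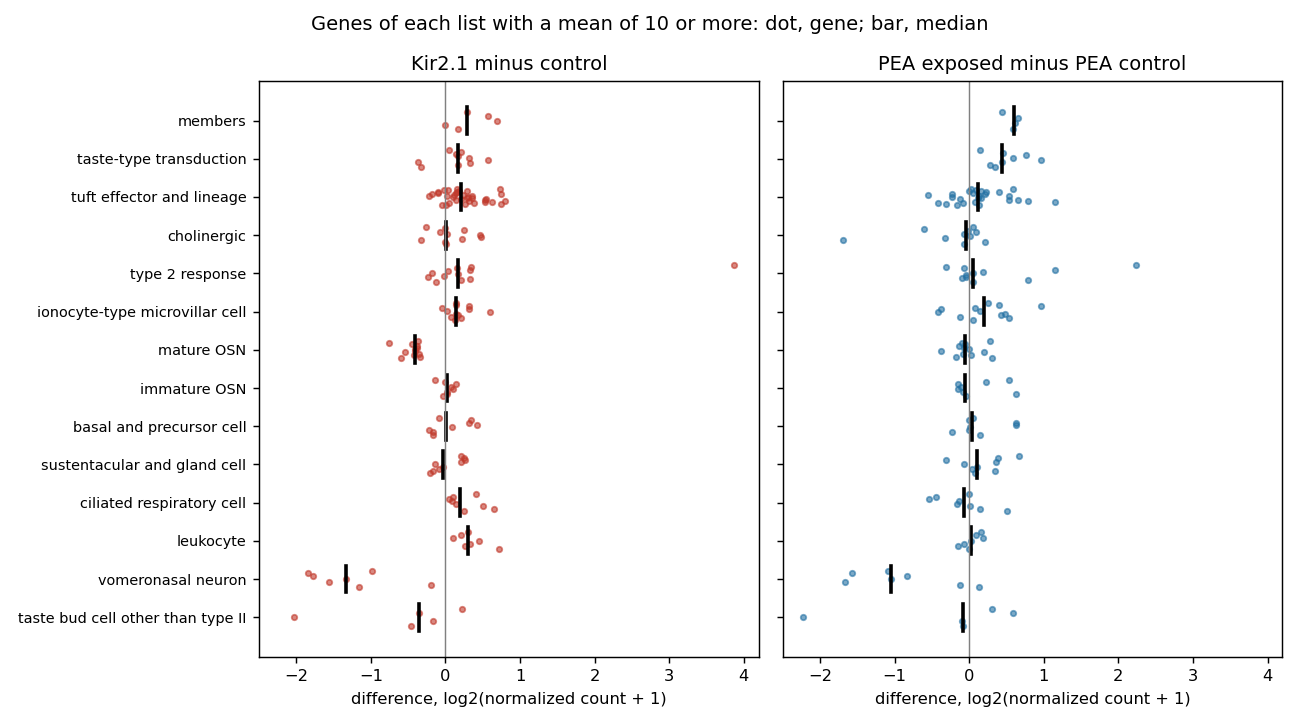
Difference between groups in log2(normalized count + 1) for the tested genes of 14 lists, the 8 genes themselves being "members", in the Kir2.1 (red) and PEA (blue) experiments; a dot is a gene and a bar the median of a list. The mature OSN list, at a median of -0.41, lies wholly below 0 in the Kir2.1 experiment, and the members have their higher median, 0.60, in the PEA experiment.

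Within groups, correlations between the members were weak. For the 4 genes tested in both experiments, log2 values were centred on the mean of each group and correlated over the 14 mice. Pearson's r was -0.24 for Trpm5 and Pou2f3, 0.31 for Pou2f3 and Avil, 0.24 for Trpm5 and Plcb2, 0.21 for Avil and Plcb2, and 0.06 for the remaining pairs. The 5 genes whose centred values followed the mean of the 4 most closely among 16701 genes were Olfr1204 (r = 0.89), Sh3pxd2b (r = 0.89), Abcc3 (r = 0.88), Pcdh7 (r = 0.87) and Sema4b (r = 0.87), none of which belongs to a tuft cell list. The 27 tuft cell genes tested in both experiments had a median r of 0.02 with this mean, beside 0.00 for all genes. The points share their library and its composition, and the extremes of so many correlations over 14 mice are a description only. Sampling noise of low genes also weakens r. In the PEA mice Plcb2 was at 7.07 to 21 normalized counts and Avil at 14.3 to 39.2. The weak correlations thus do not show that the members vary apart from each other.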

How the data were processed

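Olfactory epithelia of 14 mice at postnatal day 5 were analysed. Per the study's methods, Kir2.1 libraries came from poly-A RNA and kept no strand (single reads, 40 bp), whereas PEA libraries came from RNA freed of ribosomal RNA and kept the strand (150 bp). Transcript abundances were estimated by the authors using Salmon (1.3.0, GRCm38, Ensembl 100), collapsed to genes by tximport and scaled by DESeq2 (1.30.0), separately for both experiments. What was deposited is thus a normalized signal for each gene, called normalized counts here, and not whole reads. The methods give a reverse-stranded Salmon setting, also for the unstranded libraries. The commonest low value was 0.959 to 1.04 in the Kir2.1 mice and 0.808 to 1.18 in the PEA mice, and low values lay within 0.1 of a whole multiple of it for 58.5 to 68.8% and 28.5 to 45.1% of genes, so whole reads could not be recovered, count tests were not run and the depth is known only roughly. Column sums were 33049100 to 34198500 in the Kir2.1 and 11476100 to 12467300 in the PEA table.

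Each experiment was tested alone, on log2(normalized count + 1), with limma 3.58.1 (R 4.3.3, moderated variances following a trend on the mean) for all genes averaging 10 or more. P-values were adjusted over all of these genes by Benjamini-Hochberg and read at a threshold of 0.05. Genes under that mean have log2 differences from the same fit with no filter. Single members were also compared with exact two-sided permutation tests over mice. The script was tested on simulated data. Among 200 simulated changed genes with a log2 difference of 0.6, 18% were called in the Kir2.1 and 10.5% in the PEA setting. With a log2 difference of 1 these shares were 51% and 53%. A member that was not called can thus still differ. Levels per kb used the exon union of GENCODE vM21 on GRCm38. Equal replicate numbers are not stated to mark a litter or day. Correlations of the centred values of same-numbered mice were -0.06, -0.01 and 0.16 (Kir2.1) and 0.13, -0.02, -0.05 and 0.10 (PEA), so they were not paired. No 2 mice of a group differed by less than sampling noise. Members and gene lists were chosen with earlier results of these data known. The rule for genes to name was all members, the 3 most abundant and all called genes of each list described, the 5 genes most alike in pattern, and Kcnj2 and Omp. Alternatives were other pseudocounts, filters and scalings, limma without a trend, the replicate block, a vomeronasal covariate and leaving mice out. Whether the mice of a group came from separate litters is not given in the sources used here, so p-values measure the spread between these mice. Per the study's methods, the controls of the Kir2.1 pups were littermates. The odor was given from a vial in a home cage that held the mother with her pups. Exposure to PEA thus went by cage, and the number of cages is not given. A difference between cages or litters cannot be told apart from one of exposure, also where single mice were permuted.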

Additional observations from a re-analysis of the deposited data

Results flagged for a closer look

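In 15 combinations of a member and a PEA group of 4 mice that had any spread, 2 mice stood apart by Dixon's test. Its rate of about 1 in 20 groups holds for normally distributed values and not for counts this close to 0. Chat in PEA exposed mouse 3 was at 4.95 normalized counts, where the other 3 exposed mice were between 0.695 and 1.23. Il25 in PEA exposed mouse 4 was at 0.785, where the others were listed at 0, a pattern that the test flags whatever the value. Both values stand for at most a few reads.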

How the results depend on the processing

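No member was called in either experiment under any of the 15 alternatives tried in the Kir2.1 and 18 in the PEA experiment. The fold changes of single members kept their sign in 137 of 143 repeats. The 6 others were all Pou2f3, which in the Kir2.1 experiment ranged from -0.16 to 0.090 with a mouse left out and was 0.042 with the vomeronasal covariate, and which was -0.079 in the PEA mice low in vomeronasal genes, 1 against 3. There the members' median was 0.35 in place of 0.60, and 1 list gene, Gng13, was called. The call of Rgs2 among the tested genes of the 5 chemosensory lists in the Kir2.1 experiment was lost without a trend, with the replicate block, with the vomeronasal covariate and without each mouse but Kir2.1 mouse 3, so that the count was 0 in each of these, and 0 to 1 over the mice left out. The replicate block, which pairs mice that share only a number, changed no call of a member. It ended the calls of Omp, Slc17a6 and Rgs2. Under it the limma adjusted p was 0.383 for Trpm5 and 0.364 for Avil in the PEA experiment. The cause of these changes was not tested. With Chat and Il25 at a few reads, small changes in them could not be told from sampling noise at this depth.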
